A study of Danio rerio with 23 samples.

Results

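The ovary of the young glucocorticoid receptor mutant was set against the ovary of the older wild type in female zebrafish (Danio rerio), a contrast of 12 of the 23 RNA-seq libraries of the study. One group held the 6 libraries titled GRKO, 3 months. The mutants lack nr3c1, the gene of the glucocorticoid receptor, in the whole body (nr3c1 -/- in the labels) and were sampled 3 months after fertilisation. The other group held the 6 libraries titled WT, 6 months, from wild-type fish sampled 6 months after fertilisation. Members were chosen by title alone. GRKO library 4 carries the title and library name of the mutant and the genotype field of the wild type, and was kept with the mutants by its title, so results are given with and without it. The labels give neither the kind of mutation nor the fish behind a library. Spread between libraries, on which all p-values rest, may thus be technical in part. Genotype and age differ together between the groups, and their parts in a difference between these groups cannot be told apart. The remaining 11 libraries, 5 from WT at 3 months and 6 from GRKO at 6 months, stayed out of the fit behind the reported calls and were used to see where other ovaries lie. Fits that take them in as well are given as alternatives.

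The glucocorticoid receptor is a nuclear receptor. When it binds cortisol, the main stress steroid of teleost fish, it enters the nucleus and raises or lowers transcription of its target genes. The zebrafish ovary grows follicles of all stages side by side, and growing oocytes store large amounts of maternal RNA, so ovary RNA mixes oocyte transcripts with those of follicle, stromal and blood cells. The series asks whether loss of the receptor speeds ageing of this organ, and the contrast asks how far the young mutant ovary is from an older normal one.

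Each file gave 1 estimated count for each of 57775 transcripts, and the 12 libraries summed to 29489146 to 37985230 counts. The identifiers are Ensembl transcripts that the files do not pair with gene names, and 0 of them matched the gene name table used here. Transcripts are therefore given by identifier and grouped by level, direction and pattern. The transcripts of nr3c1 and of ovary marker genes were not analysed here, so neither the mutation nor the tissue label was checked in the RNA. In earlier results on these files, WT libraries 2 and 6 at 3 months stood apart from the other 3 of their group. Both lie outside the 12 libraries, and results that use the young wild type are given library by library or with and without them.

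The young mutant ovary differed from the older wild-type ovary at a large part of its transcripts, in both directions and mostly by small amounts. Of 26272 transcripts tested, 7907 (30.1%) passed the test (edgeR's quasi-likelihood test at a Benjamini-Hochberg adjusted p under 0.05). Of these, 3797 (14.5%) were higher and 4110 (15.6%) were lower in young GRKO. Most of the higher transcripts moved by less than 2-fold (2667 of 3797), and their median log2 fold change was 0.66. Taken over all levels of abundance, the lower transcripts had larger changes (median log2 fold change -1.04), and 2134 of 4110 were at least 2-fold lower. In bulk ovary, fewer cells of a type and less RNA per cell cannot be told apart.

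Leaving out GRKO library 4 gave 6900 calls of 27076 tested (25.5%), 3333 higher and 3567 lower, and 6446 of the 6900 were among the 7907. Over all 12 libraries left out in turn the count lay between 6365 and 8351. At least 8-fold differences numbered 152 higher and 342 lower. Both numbers moved when single libraries were left out. The higher ran from 128 (without GRKO library 10) to 212 (without WT library 2 at 6 months). The lower ran from 309 (without WT library 6 at 6 months) to 573 (without GRKO library 12), and was 554 without GRKO library 4. The expression filter admits more transcripts in these fits. Over the transcripts tested with all 12 libraries the ranges were 120 to 180 higher and 297 to 399 lower, with 382 lower without GRKO library 4.

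**Figure D1:**
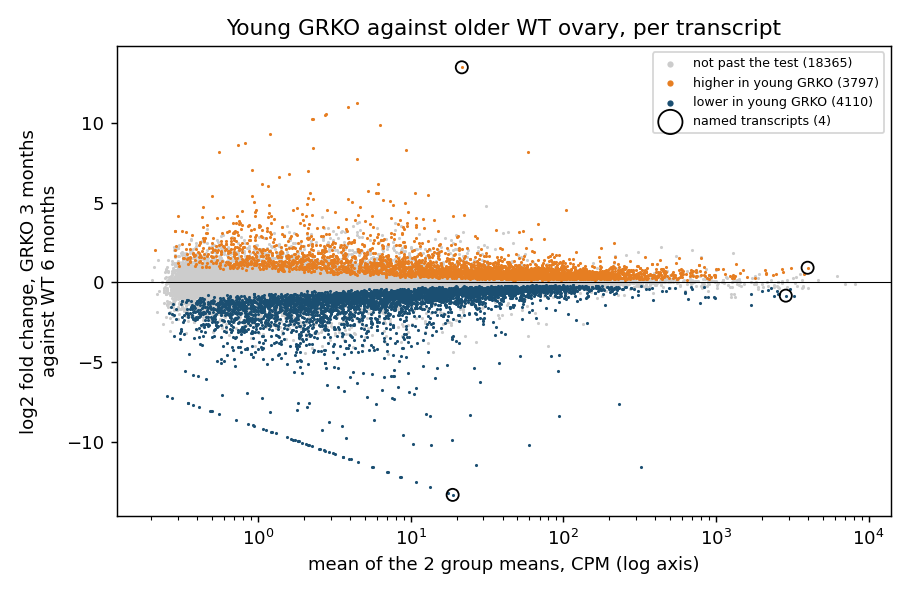
Log2 fold change of GRKO at 3 months against WT at 6 months (vertical) by the mean of the 2 group means in CPM (horizontal, log axis), 1 point per tested transcript. The 3797 higher and 4110 lower transcripts are coloured, the 4 named transcripts are ringed, and the straight lower edge holds transcripts with a count of 0 in every young GRKO library, whose fitted fold depends on the prior count.

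Direction went with abundance. Among transcripts over 100 CPM (counts scaled to a common library total) on average, 903 of 1843 passed the test (49%), and 731 of the 903 (81%) were higher in young GRKO. At 10 to 100 CPM, 3439 of 8808 passed (39%), 56.7% of them higher. At 1 to 10 CPM, 2789 of 10049 passed (27.8%), and only 30.7% of them were higher. Below 1 CPM, 776 of 5572 passed (13.9%), 33.8% of them higher. Among the called transcripts, abundant ones were thus mostly higher in the young mutant, and scarce ones mostly lower. The sizes ran the other way: over 100 CPM the called transcripts had median log2 fold changes of 0.46 and -0.41, and at 1 to 10 CPM of 1.23 and -1.26. At 10 to 100 CPM these were 0.533 and -0.611, and below 1 CPM 1.8 and -1.83. Rises and falls at a like level were thus of similar size. The larger median fall over all calls went with the lower calls being more often scarce transcripts.

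The turn from lower to higher was also there with other scaling factors. Such factors move all transcripts of a library alike. They shifted the log2 fold changes by a median of only -0.0205 (upper-quartile) and 0.00222 (RLE), so they could hardly change the turn. With upper-quartile factors 78.2% of the calls over 100 CPM and 28.9% of those at 1 to 10 CPM were higher, and with RLE factors 81% and 30.7%. Without GRKO library 4 these shares were 83.7% and 30.1%, and they ranged from 78% to 87.5% and from 28.4% to 33.4% when each of the 12 libraries was left out. Counts are relative within a library, so a rise of abundant transcripts and a fall of the rest are tied to each other by the scaling. The test also sees smaller folds at higher counts.

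**Figure D2:**
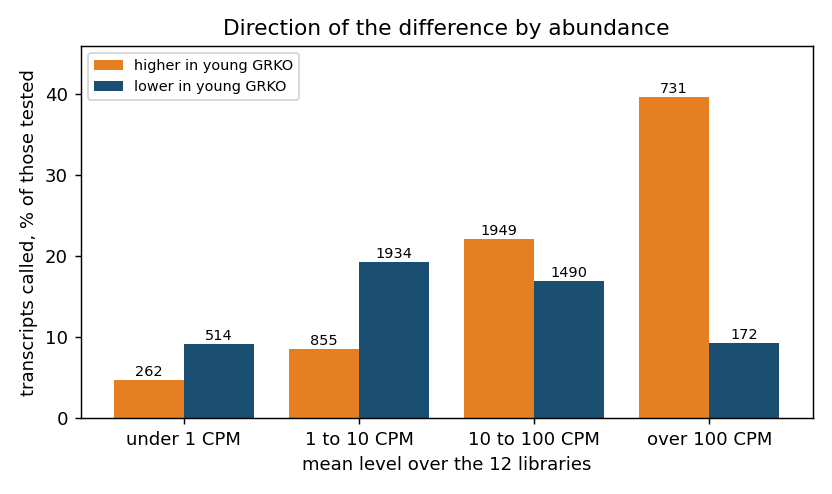
Share of tested transcripts called higher (orange) or lower (blue) in GRKO at 3 months than in WT at 6 months, in % (vertical), by the mean level over the 12 libraries (horizontal), with the number called above each bar. Over 100 CPM, 731 were higher and 172 lower, and at 1 to 10 CPM 855 were higher and 1934 lower.

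A part of the difference separated every library of one group from every library of the other. Over all tested transcripts, 3869 (14.7%) showed no overlap between the 6 and 6 libraries, 2279 of them higher (8.67%) and 1590 lower (6.05%) in young GRKO. Among the called transcripts, 2169 of 3797 higher (57.1%) and 1512 of 4110 lower (36.8%) separated all libraries. These shares stand beside 8.67% and 6.05% in the same directions over all tested transcripts, but the same libraries made the calls. Of those at least 8-fold apart, 129 of 152 higher and 222 of 342 lower did so. Without GRKO library 4, 16% of the tested transcripts showed no overlap.

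Presence in all libraries of one group and absence from all of the other was rare. Of all 57775 transcripts, 54 were counted in all 6 older WT libraries and had a rounded count of 0 in all 6 young GRKO libraries. Another 15 showed the opposite. Each had 1 CPM or more on average in the group that held it. The expression filter admitted 44 of the 54 and 11 of the 15 to the test, and all of these were called, against 30.1% of all tested transcripts. The same 12 libraries made the choice and the calls, so these calls were close to fixed in advance and add no support. The median level was 4.42 CPM for the 54 and 4.11 CPM for the 15, and the highest were 40.9 and 43.3 CPM. The other 11 libraries, which played no part in the choice, divided on these transcripts. WT libraries 10, 12 and 13 at 3 months each held 47 of the 54, and at most 2 of the 15. WT libraries 2 and 6 at 3 months held 21 and 18 of the 54, and 6 and 5 of the 15. The GRKO libraries at 6 months held from 2 (library 12) to 31 (libraries 3 and 5) of the 54, and from 8 (library 3) to 15 (library 12) of the 15.

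Taken by group, 6 of the 54 were seen in every young WT library and in no older GRKO library. Of the 15, 5 were at 0 in every young WT library and present in every older GRKO library. No transcript of either set followed age in all libraries, that is, was shared by both groups of one age and missing from both of the other. One of the 54 was at 0 in each of the 11 other libraries as well. It was not tested whether zeros arose where reads went to another transcript in the estimate.

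The transcripts named here are, in each direction, the one with the largest fold and the one with the largest difference in mean CPM among those called, at 1 CPM or more and without overlap between the groups. The second of each pair also had counts in all 12 libraries. All 4 had fractional estimated counts in some of the 12 libraries, so reads shared with other transcripts may enter their levels. The labels of the files give no gene or function for any of them.

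ENSDART00000140507.2 was the largest rise. Its level in young GRKO was 18.6 CPM in the lowest library, 35.1 CPM at the median and 94.8 CPM in the highest, and its count was 0 in all 6 older WT libraries. The groups did not overlap, and with the older WT group set at 3 counts in all, young GRKO (43.3 ± 26.5 CPM, SD, n = 6) was at least 3036-fold higher (edgeR adjusted p = 9.9e-05, and 0.000403 without GRKO library 4). This bound covers counting error only. Among the other ovaries it was far from uniform. WT libraries 2 and 6 at 3 months carried 104 and 107 CPM, more than any mutant, while WT libraries 10, 12 and 13 of that age had a count of 0. In GRKO at 6 months, libraries 3, 5 and 11 had a count of 0, and libraries 2, 10 and 12 had 2.2, 7.4 and 46.3 CPM. The transcript was thus present in some libraries and absent from others in both genotypes.

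ENSDART00000183562.1 showed the largest rise in level and is an abundant transcript in every library. It ranged from 4146 to 7149 CPM in young GRKO, with a median of 5079 CPM, and from 1979 to 3351 CPM in older WT, with a median of 2826 CPM. The highest older WT library lay below the lowest young GRKO library. Its log2 fold change was 0.92 (SE 0.15, edgeR adjusted p = 0.00104), and 0.96 (adjusted p = 0.00214) without GRKO library 4. In young WT, libraries 10, 12 and 13 held 2628, 2578 and 2336 CPM, inside the older WT range, while libraries 2 and 6 held 6401 and 7391 CPM, inside or above the young GRKO range. The GRKO libraries at 6 months spread from 2345 to 6670 CPM, over both ranges.

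ENSDART00000183479.1 was the largest fall. It had a count of 0 in all 6 young GRKO libraries and 1.32 CPM in the lowest, 19.7 CPM at the median and 108 CPM in the highest older WT library. Young GRKO was at least 2476-fold lower with its group set at 3 counts in all, against 37.7 ± 40.8 CPM (SD, n = 6) in older WT (edgeR adjusted p = 0.00235, and 0.00448 without GRKO library 4). Much of that mean came from WT library 6 at 6 months (108 CPM), without which the older WT level was 23.6 ± 24.0 CPM (SD, n = 5) and the bound at least 1547-fold. With limma voom and sample quality weights in place of edgeR the call was lost, at adjusted p = 0.0589, and over the alternatives tried adjusted p ran from 3.45e-18 to 0.124. WT libraries 2 and 6 at 3 months again went with the young mutants, at a count of 0, and the other 3 of that group held 91.7 to 119 CPM. In GRKO at 6 months libraries 10 and 12 had a count of 0 and library 5 had 65.4 CPM.

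ENSDART00000054987.7 showed the largest fall in level. It ranged from 1797 to 2340 CPM in young GRKO, with a median of 2108 CPM, and from 2490 to 5082 CPM in older WT, with a median of 3458 CPM. The groups did not overlap, and the log2 fold change was -0.83 (SE 0.15, edgeR adjusted p = 0.00239, and 0.00484 without GRKO library 4). Unlike for the other 3, all older GRKO libraries (1690 to 2322 CPM) lay below every older WT library. In young WT, libraries 2, 6 and 12 held 1849, 2153 and 2163 CPM, inside the young GRKO range, and libraries 10 and 13 held 3333 and 3415 CPM, inside the older WT range.

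**Figure D3:**
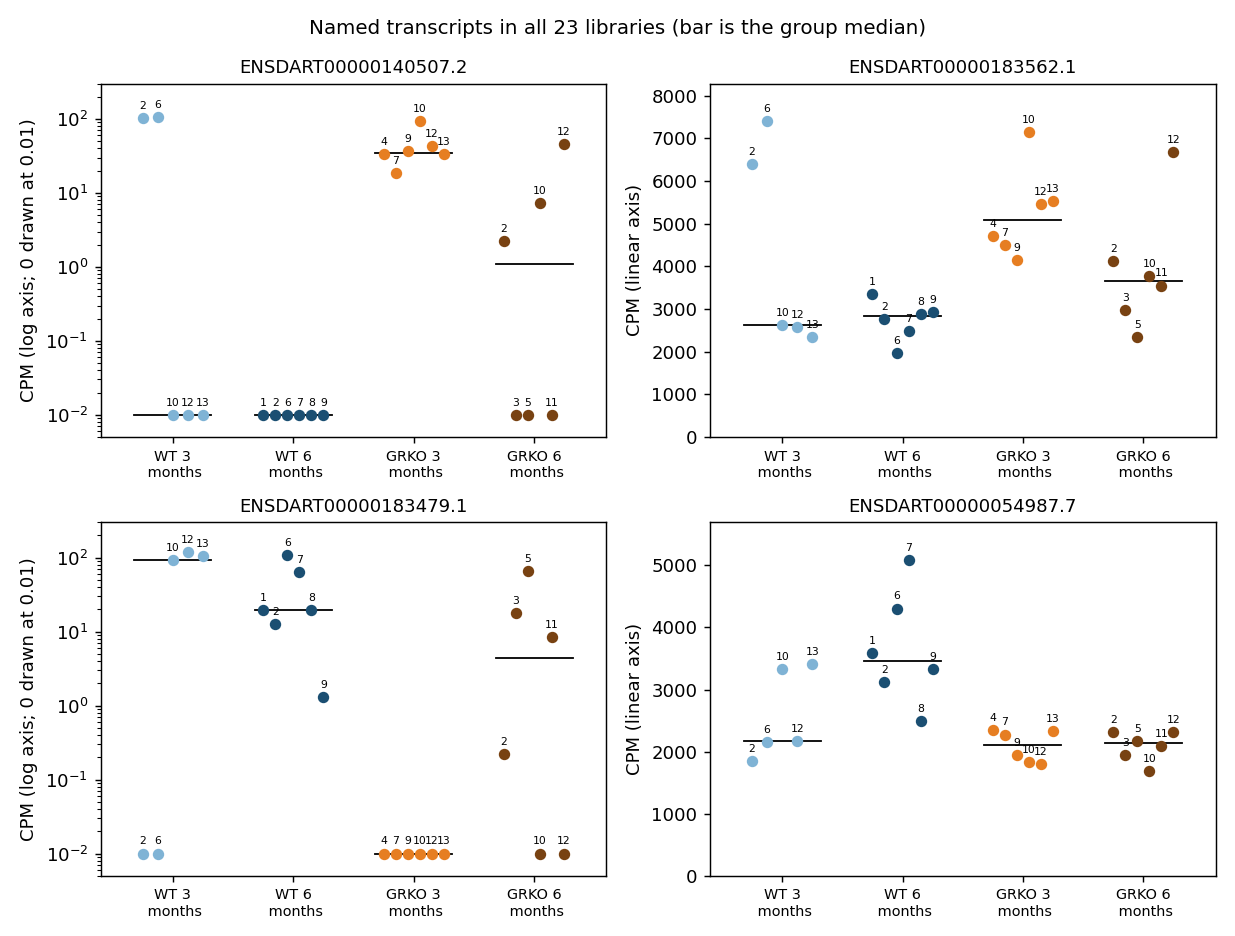
CPM of the 4 named transcripts in all 23 libraries (vertical; log axis for the 2 with counts of 0, which are drawn at 0.01 CPM, and linear axis from 0 for the others), by group (horizontal), with library numbers and the group median as a bar. Young GRKO and older WT do not overlap in any panel, and WT libraries 2 and 6 at 3 months lie inside the young GRKO range, or farther from older WT, in all 4.

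The called transcripts carried a sizeable share of all RNA counted. In young GRKO the 3797 higher transcripts held 35.2% ± 2.12 of all counts, and in older WT 25.4% ± 1.61 (SD, n = 6 each). The 4110 lower transcripts held 8.97% ± 0.793 in young GRKO and 15.5% ± 1.2 in older WT (SD, n = 6 each). Since these sets were chosen on the same libraries, the shares describe the size of the difference and do not test it. The libraries that took no part in the choice lay between the groups or on one side. In GRKO at 6 months the higher set took 28.1% to 34.0% of the counts and the lower set 7.67% to 12.7%. Libraries 10 and 12 lay in the young GRKO range for the lower set, library 12 did so for the higher set too, and the other 4 lay between the groups on both. WT libraries 10, 12 and 13 at 3 months had 23.9% to 24.9% and 15.2% to 16.7%, the levels of older WT. WT libraries 2 and 6 at 3 months had 36.7% and 36.1%, and 9.25% and 9.47%, the levels of young GRKO.

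**Figure D4:**
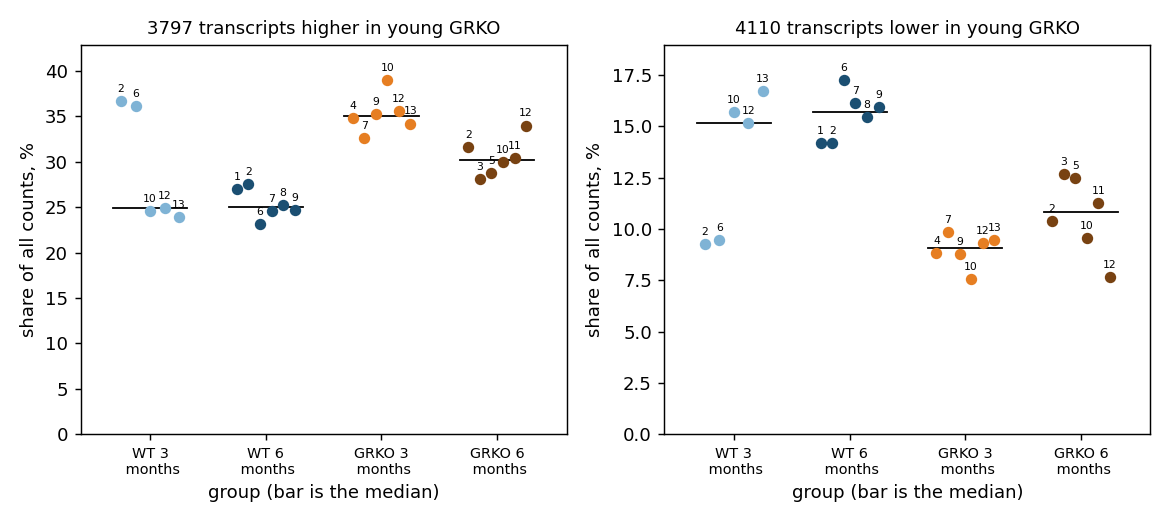
Share of all counts, in % (vertical, from 0), held by the transcripts higher in GRKO at 3 months (left) and lower (right), by group (horizontal); each point is a library with its number, and bars are medians. The 2 groups used to choose the transcripts separate, at 32.6% to 39.0% against 23.2% to 27.5% on the left, and the 5 young WT libraries fall at both levels.

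To place each ovary on the line between the 2 groups, its log2 CPM over the called transcripts was projected so that 0 is the mean of older WT and 1 the mean of young GRKO. Each of the 12 libraries was placed with transcripts and means obtained without it. The young GRKO libraries then lay at 0.832 to 1.11 (median 0.906), with GRKO library 4 at 0.875. The older WT libraries lay at -0.0742 to 0.327 (median 0.1). A library left out of the choice was thus still placed on its own side in all 12 cases. WT libraries 1 and 2 at 6 months were the nearest to the mutants, at 0.327 and 0.298, against at most 0.131 for the other 4.

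The remaining ovaries fell into place unevenly. The GRKO libraries at 6 months lay at 0.491 to 1.08 (median 0.754), with library 12 at 1.08 and libraries 3 and 5 at 0.491 and 0.558. By this position none of these reached the range of older WT, and all but library 12 lay below the range of young GRKO. Large folds weigh most in the position. The share of called transcripts nearer to the young GRKO mean than to the older WT mean weighs all alike. By that share library 3 (32.8%) lay inside the older WT range of 7.71% to 37.8%, and library 5 (39%) just above it. Libraries 2, 10, 11 and 12 had 60.5% to 84.8%. In young WT, libraries 10, 12 and 13 took positions of 0.0104, 0.0265 and -0.0661, within the range of older WT although they were as young as the mutants. The positions of WT libraries 2 and 6 at 3 months, 0.692 and 0.667, fell within the range of the older mutants. Neither the mutants as a group nor the young fish as a group therefore held 1 common position on this line.

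**Figure D5:**
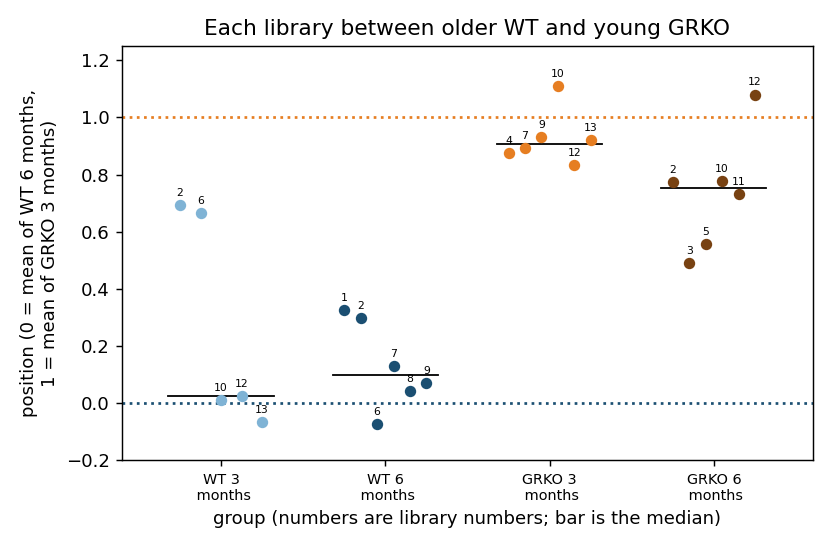
Position of each of the 23 libraries on the line from the mean of WT at 6 months (0) to the mean of GRKO at 3 months (1) over the called transcripts (vertical), by group (horizontal), with library numbers and the group median as a bar. Young GRKO lies at 0.832 to 1.11, older WT at -0.0742 to 0.327, and the young WT libraries at about 0 or near 0.7.

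Group means were also compared per transcript. With each called transcript split at the midpoint between the 2 group means, the mean of young WT lay on the older WT side and that of older GRKO on the young GRKO side for 4010 of 7907 (50.7%), against 38.7% of all tested transcripts. In this pattern both wild-type groups stood against both mutant groups. The opposite pattern, in which both young groups stood against both older groups, held for 946 (12%), against 18.6% of all tested. Both other groups lay with older WT for 1299 (16.4%), against 19.6% of all tested, and both with young GRKO for 1652 (20.9%), against 23.1%. Without WT libraries 2 and 6 at 3 months the first pattern rose to 63.3% of the called transcripts and the second fell to 4.6%, against 46.1% and 13.1% of all tested. These 2 libraries were picked from earlier results of the same data and lay towards young GRKO on the called transcripts. Leaving them out was bound to move the young WT mean towards older WT, so this change adds no support. Among the largest differences, 111 of 152 at least 8-fold higher (73%) and 256 of 342 at least 8-fold lower (74.9%) showed the first pattern, and 6 and 7 showed the second. Without GRKO library 4 the first and second patterns held for 53% and 10.2% of the calls then made, and the shares over all tested transcripts are not given here.

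Older GRKO against young WT is the crossed contrast, with the same genotype difference, the age gap turned round and no library in common with the first. It was fitted alone, on 11 libraries. There, 783 of 27030 transcripts (2.9%) passed the test, 352 (1.3%) higher and 431 (1.59%) lower in older GRKO (edgeR adjusted p under 0.05). For the 7775 transcripts called in the first contrast and tested in the second, the fold changes pointed the same way for 72.1%, against 62.2% of all 25486 transcripts tested in both and 57.8% of those not called. The share was 81.8% (3278 of 4009) among the lower transcripts and 61.8% (2329 of 3766) among the higher ones. The 62.2% takes both directions together and is not the background of a single direction. Of all 25486, 46.5% were higher in older GRKO than in young WT, the share to set beside the 61.8%. In both contrasts 165 were called higher and 250 lower, which is 5.25% of the 7907 and 53% of the 783, and 4 were called in opposite directions. In simulated counts the crossed test recovered 14% of 2-fold and 47% of 4-fold changes, against 38% and 81% in the first contrast. The common biological coefficient of variation, a measure of spread among libraries, was 0.64 against 0.48. A transcript not called in the crossed contrast is thus not shown to be unchanged there.

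These values hung on single libraries of the crossed contrast. Leaving out WT libraries 2 and 6 at 3 months raised its calls to 3450 of 29145 (1490 higher, 1960 lower) and the share of the same sign to 87.3% for the higher and 89.1% for the lower transcripts, against 72.2% of all tested. Then 1634 were called alike and 20 in opposite directions. Since WT libraries 2 and 6 at 3 months lay towards young GRKO on the called transcripts, this rise in the share of the same sign was close to fixed in advance. In the other direction, the share for the higher transcripts fell to 48.8% without WT library 13 at 3 months and to 49.2% without GRKO library 12 at 6 months. The calls of the crossed contrast fell from 783 whichever single library was left out. They ran from 394 (without GRKO library 11 at 6 months) to 718 (without WT library 2 at 3 months). Of the 4 named transcripts none passed the test there, with edgeR adjusted p of 0.449 to 0.909.

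Whether the contrasts differ was tested directly on all 23 libraries, as the difference between their fold changes. It passed for 192 of 30849 transcripts (0.622%), 125 positive (0.405%) and 67 negative (0.217%) (edgeR adjusted p under 0.05), and 5233 reached an unadjusted p under 0.05. This difference amounts to the age effects of both genotypes summed, with the sign turned. A positive value thus means a higher level in the young groups, taken over both genotypes. Among the transcripts called in the first contrast, 106 of the higher and 48 of the lower passed. In all of them the difference had the sign of the first contrast. That contrast shares its libraries with this test, so the sign was close to fixed in advance. None of the 4 named transcripts passed, with edgeR adjusted p of 0.0748 to 0.29. In simulated counts this test recovered 14% of 2-fold and 46% of 4-fold changes, so a transcript that did not pass may still differ. The count was unstable, at 53 without GRKO library 4. It fell by more than 1.5 times when WT library 2 or 6 at 3 months, WT library 6, 7 or 9 at 6 months, GRKO library 4, 7, 9 or 10 at 3 months or GRKO library 3, 5, 10 or 11 at 6 months was left out, to 26 at the lowest (without GRKO library 9 at 3 months). It rose by more than 1.5 times without WT library 13 or GRKO library 12 at 3 months or GRKO library 2 or 12 at 6 months, to 489 at the highest.

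How far apart the ovaries were can also be read from distances that use no calls. Over 30849 transcripts the root mean square difference in log2 CPM between a young GRKO and an older WT library was 1.55 to 2.1 (median 1.75, 36 pairs). Young GRKO libraries differed from each other by 1.09 to 1.3 (median 1.21, 15 pairs), and older WT libraries by 1.14 to 1.72 (median 1.48, 15 pairs). Older GRKO libraries differed among themselves by 1.17 to 1.82 (median 1.42, 15 pairs). Young WT libraries did so by 1.13 to 2.29 (median 2.12, 10 pairs), at the median more than young GRKO from older WT. Of the 3 other groups, older GRKO had the smallest median distance to every young GRKO library (median over pairs 1.37). In the same way all 6 were nearer to older WT than to young WT, but the medians over pairs, 1.75 and 1.82, differed by less than the spread between pairs (SD 0.13 and 0.157). The distance to young WT hung on which libraries were taken: it was 1.8 to 2.19 (median 1.86) to libraries 10, 12 and 13, with the order the same in all 6, and 1.48 to 1.81 (median 1.69) to libraries 2 and 6. Without GRKO library 4 the median distance to older WT was 1.75.

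The other contrasts, each fitted on its own groups, give a scale for the 7907 calls. Young GRKO against young WT gave 1447 calls (5.42%), 651 higher (2.44%) and 796 lower (2.98%). Older GRKO against older WT gave 1380 (5.2%), 594 higher (2.24%) and 786 lower (2.96%). The contrasts of age within a genotype gave 1 call each by edgeR: 1 of 27791 (0.0036%), higher in older WT than in young WT, and 1 of 25607 (0.00391%), lower in older than in young GRKO. At an unadjusted p under 0.05 these numbered 1873 and 3814. All these contrasts share libraries with the present one, and differences between their counts were not tested. Without WT libraries 2 and 6 at 3 months, young GRKO against young WT gave 9741 calls of 28804 tested (33.8%), 4590 higher and 5151 lower, and older against young WT gave 4 of 29823 (2 higher, 2 lower; 3537 at an unadjusted p under 0.05, edgeR). The order of young GRKO against older WT and young GRKO against young WT in the number of calls thus turned round without these libraries. Over 24146 transcripts tested in all of them, the median absolute log2 fold change was 0.418 for young GRKO against older WT, 0.311 for young GRKO against young WT, 0.302 for older GRKO against older WT, 0.237 for older against young WT and 0.217 for older against young GRKO. Without WT libraries 2 and 6 at 3 months the values with young WT were 0.501 and 0.264. The common biological coefficient of variation, a measure of spread among libraries, was 0.48, 0.58, 0.53, 0.663 and 0.448 in the same order, and 0.473 and 0.6 for the contrasts with young WT without libraries 2 and 6. Its part in the number of calls was not tested.

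Whole-library measures separated the groups less. The young GRKO libraries held 35242 to 37323 transcripts with a count of 1 or more (median 35975), and the older WT libraries 36292 to 39307 (median 37130). The means were 36087 ± 798 and 37601 ± 1158 (SD, n = 6 each), and the groups overlapped. The difference of -1514 had p = 0.0281 in a two-sided exact permutation test and did not pass after adjustment over 3 measures (0.0844), where the smallest p the design allows is 0.00216. Without WT library 9 or without GRKO library 9 the exact permutation test gave an adjusted p of 0.0325, so the outcome turned on single libraries. The 100 most abundant transcripts took 22.7% ± 1.79 and 24.0% ± 1.18 of the counts (n = 6 each, exact permutation p = 0.177, adjusted 0.266). The effective number of transcripts, the exponential of the Shannon entropy, was 4447 ± 368 and 4631 ± 266 (n = 6 each, exact permutation p = 0.357, adjusted 0.357). No difference in how evenly RNA was spread over transcripts was detectable with these 12 libraries.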

How the data were processed

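The authors deposited 1 file per library with estimated counts per Ensembl transcript, not scaled to depth or length; per the submitters' processing notes they used kallisto 0.48.0 and the build GRCz11. The sources used here do not name the annotation release, strand setting or read filters. Of the nonzero values 75.7% were fractional. Samples were grouped by title. Estimated counts were rounded and tested with edgeR 4.0.16 (quasi-likelihood, robust, TMM factors, default expression filter; R 4.3.3) on the libraries compared, with Benjamini-Hochberg adjustment over all tested transcripts. The 26272 tested held a median of 99.62% of the counts. The standard error is the log2 fold change over the square root of F. CPM values use TMM factors over 23 libraries, and log2 CPM a prior count of 2. Same-numbered libraries did not deviate together (correlations of 0.00738 and -0.0902 for the 2 shared numbers), and no library repeated another of its group (lowest chi-square over its degrees of freedom 28.3). Simulated counts for 26272 transcripts held true changes of 2-fold and of 4-fold, 100 of each size. At 1 CPM or more, the test of young GRKO against older WT recovered 38% and 81% of these. It made 6 false calls, 4.8% of its calls in the simulation. In like simulations the test of older GRKO against young WT recovered 14% and 47%, and the test of the difference between the contrasts 14% and 46%. The counts were drawn from the model that the test assumes, with independent libraries. A false share near the threshold is thus built in and does not check the error rate in the data. Far fewer transcripts changed there than the 7907 called in the data, and the adjusted cut-off depends on that number. The recovered shares therefore do not carry over to the reported calls, and none is given for folds under 2. Planned gene lists and cell type markers could not be applied to transcript identifiers. Transcripts were named by a rule of fold and CPM difference, stated in the report. The groups, lists and rules were chosen with earlier results of these data known. Alternatives used DESeq2 1.42.0 and limma 3.58.1, and figures were drawn with matplotlib 3.10.9. Intervals and bounds cover counting error only.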

Additional observations from a re-analysis of the deposited data

Results flagged for a closer look

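Of 20 sets of library values checked for a value far from the rest of its group, 3 held one, where chance gives about 5%. GRKO library 10 at 3 months had 94.8 CPM of ENSDART00000140507.2, against 42.5 CPM in the next highest library of its group. The same library lay at 1.11 on the line from older WT to young GRKO, against 0.933 for the next. WT library 1 at 6 months had an effective number of transcripts of 4123, against 4619 for the next lowest. The fold changes of the crossed contrasts, young GRKO against older WT and older GRKO against young WT, differed from each other at 192 transcripts by a direct test.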

How the results depend on the processing

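Calls between young GRKO and older WT numbered 7907 (3797 higher, 4110 lower). They ranged from 6365 to 8351 (higher 3125 to 3992, lower 3232 to 4359) when each of the 12 libraries was left out, and stayed within 1.5 times of the reported count with RLE or upper-quartile factors, DESeq2 (9342), limma voom with sample weights (9653), no robust estimation, both other filters, thinning to equal depth, all 23 libraries (6348), all libraries but WT libraries 2 and 6 at 3 months (9175), and WT libraries 1 and 2 at 6 months both left out (9479). The last 2 settings, leaving out the 12 libraries in turn for the crossed signs and the bounds, and leaving WT libraries 2 and 6 at 3 months out of the difference test, the contrasts with young WT and the distances were chosen after seeing the data. Counting GRKO library 4 as WT at 3 months, in a fit of all 23 libraries, gave 4470 (2082 higher, 2388 lower), against 6348 in that fit with the library kept as GRKO. Keeping transcripts with whole estimated counts gave 1434 (687 higher, 747 lower) of the 3828 then tested. The labels pair no libraries and only 2 numbers occur in both groups. A fit that allows for the number on the 12 libraries thus compares the groups within these 2 numbers alone. It leaves almost no information on spread, so few calls are possible. With the library number as a replicate block edgeR gave 0 calls (0 higher, 0 lower; 6268 at an unadjusted p under 0.05) on 12 libraries and 750 (352 higher, 398 lower) on all 23. The block also left 0 transcripts, of 192, whose crossed contrasts differ (2968 at an unadjusted p under 0.05). That count was 191 with RLE factors, 193 without WT libraries 2 and 6 at 3 months, and 26 to 489 with each library left out. The share of called transcripts with the same sign in the crossed contrast, 72.1%, was 75.8% on all 23 libraries, 88.2% without WT libraries 2 and 6 at 3 months and 62.4% to 81.5% with single libraries left out. The median distance of 1.75 was 2.23 and 1.23 with prior counts of 0.5 and 10, and older GRKO stayed nearest to young GRKO, at 1.79 and 0.946. With single libraries left out, the difference in transcripts present was -1776 to -1173. The 4 named transcripts kept their direction in all 26 alternatives that tested each. The block on 12 libraries, which can call little by its design, ended all 4 calls, and that on all 23 ended 3. The causes of the changes in the other settings were not tested. Transcripts under about 1 CPM and folds near 2 are the least certain at this depth and number of libraries.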
